A study of Homo sapiens with 12 samples.

Results

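The apolipoprotein L genes are a family of 6 (APOL1 to APOL6), found by their symbols among the 59653 gene rows of the authors' count table. The table covers 12 RNA-seq libraries of total RNA from human neurons made from induced pluripotent stem cells of IMR-90, an established fibroblast line. By their labels, 6 are controls that received a negative control siRNA (siNC) and 6 were treated with siRNA to ZCCHC17 (siZCC), which encodes a zinc knuckle protein that the series title links to neuronal splicing. The sample titles also carry the letters NPC, whose meaning the labels do not give. All libraries share 1 line, and nothing in the labels says whether replicates were separate differentiations, so p-values measure the spread between these libraries only. The family was selected on measured values, the differences of its counts between siZCC and siNC, so these differences are given as a description: no p is given for them, and a call by the fit over all genes is not read as support.

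Apolipoproteins L share a region that inserts into membranes and can form channels. Unlike most apolipoproteins they are largely intracellular. APOL1 is the member that is secreted: it circulates on high-density lipoprotein and lyses African trypanosomes. Several members are induced by interferons and tumour necrosis factor, and some have been tied to the death of cells or to the defence of cells against microbes.

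All members lie on chromosome 22 in the GENCODE v29 annotation of GRCh38, the build that the submitters' processing notes also list. They form 2 groups. APOL6 (35648395 to 35668409, plus strand) and APOL5 (35717872 to 35729483, plus strand) span 81.1 kb. After a gap of 410.8 kb, which holds the splicing regulator RBFOX2, come APOL3 (36140330 to 36166177), APOL4 (36189124 to 36204840) and APOL2 (36226203 to 36239954) on the minus strand and APOL1 (36253010 to 36267530) on the plus strand, within 127.2 kb. No annotated gene overlapped any of the 6. The paralogs are separable by reads of ordinary length: 0 of the 100-base stretches in the transcripts of any member occurred in the transcripts of another gene, and at 50 bases the shared stretches were at most 3.94%, in APOL1.

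Library totals were 90755953 to 120023356 counts in siNC and 76115083 to 105389055 in siZCC, so the siZCC libraries were shallower. ZCCHC17 stood at 54.0 to 61.0 counts-per-million (CPM) in siNC and 9.37 to 10.6 CPM in siZCC, a log2 fold change of -2.51 (SE 0.0402; edgeR quasi-likelihood fit, Benjamini-Hochberg adjusted, adjusted p 3.52e-17). The labelled cell type was compared with its markers. MAP2 (1030 CPM in siNC), DCX (649 CPM) and STMN2 (484 CPM) were abundant, NEFM (141 CPM), SNAP25 (91.4 CPM) and SYN1 (54.2 CPM) lower, and the mature neuron marker RBFOX3 averaged 1.27 CPM. TUBB3, another neuron marker, averaged 14.2 CPM in siNC. The progenitor markers VIM (3550 CPM in siNC) and NES (1120 CPM) lay above all of these neuronal genes. The progenitor marker SOX2 (621 CPM) and the astrocyte markers GFAP (616 CPM), GJA1 (499 CPM) and SLC1A3 (425 CPM) lay within the range of the neuronal genes. These CPM are not divided by gene length, so levels of different genes compare only roughly. Of 8 neuron markers 3 were lower in siZCC, of 7 progenitor markers 3 were higher and 1 lower, and of 8 astrocyte markers 3 were higher and 1 lower. That is 37.5%, 57.1% and 50% called, beside 22.2% of all genes tested.

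Per length of gene, APOL2 was the most abundant member, followed by APOL4, APOL6, APOL1 and APOL3. Levels per length here are TMM-scaled CPM per kb of annotated exon (mean ± SD, n = 6). In siNC, APOL2, which resides at the endoplasmic reticulum, stood at 8.58 ± 0.344 CPM per kb. APOL4, among the least studied members, stood at 3.71 ± 0.655 CPM per kb. APOL6, which carries a BH3-like motif and promotes mitochondrial apoptosis when overexpressed, stood at 0.392 ± 0.0651 CPM per kb. The secreted APOL1 was at 0.0750 ± 0.0130 CPM per kb. APOL3, an interferon-induced protein that can dissolve bacterial membranes, was lowest of those measured, at 0.0334 ± 0.00921 CPM per kb. No neighbours in this order overlapped in their siNC ranges. The siZCC libraries had the same order, with APOL2 at 9.48 ± 0.703, APOL4 at 1.81 ± 0.184, APOL6 at 0.255 ± 0.0294, APOL1 at 0.0764 ± 0.0277 and APOL3 at 0.0207 ± 0.00899 CPM per kb, and again no overlap between neighbours. APOL5 had 1 count in 1 siNC library and 0 in the other 11 libraries. At these depths a count of 0 allows a level of up to 0.0250 to 0.0394 CPM per library (3 counts; counting error only), so expression of APOL5 was not detectable.

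**Figure D1:**
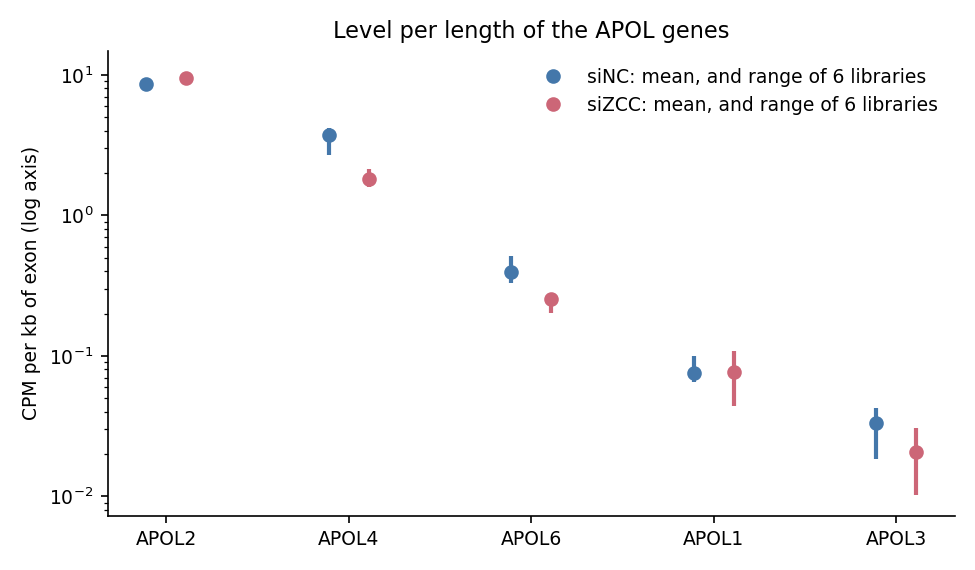
Level of each APOL gene per kb of annotated exon (CPM per kb, log axis), with points for the mean and lines for the range of 6 libraries in siNC and siZCC. APOL2 and APOL4 lie above 1 CPM per kb in both groups, and APOL1 and APOL3 below 0.11.

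The members did not share one direction. In siZCC, APOL4 was at 48.9% of its siNC mean and APOL6 at 65.1%, whereas APOL2 was at 111%. The fit across all genes kept 5 members (all but APOL5). At an adjusted p under 0.05 the fit called APOL4 and APOL6 lower, beside 10.8% of all 24671 genes tested, and APOL2 higher, beside 11.4% of all genes. These counts rest on the contrast that put the family forward and are not read as evidence about it. In bulk RNA, fewer cells of a type and less RNA per cell cannot be told apart.

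APOL4 had the largest difference. Its libraries ranged from 11.8 to 18.5 CPM in siNC (median 17.8) and from 7.01 to 9.36 CPM in siZCC (median 7.85), resting on 1418 to 2115 and 577 to 883 counts. Every siZCC library lay below every siNC library, as in 4.5% of all genes tested. Within siNC the libraries fell in 2 levels: replicates 5 and 2 were low at 11.8 and 13.4 CPM, while the other 4 lay between 17.7 and 18.5 CPM. The log2 fold change was -1.03 (SE 0.103), a value below which 0.195% of the genes tested lay. The family was selected on such differences, so this rank is a description only. The log2 fold change remained between -1.11 and -0.99 when single libraries were left out, the largest difference being without siNC replicate 5.

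APOL6 ranged from 3.32 to 5.22 CPM in siNC (median 3.76) and from 2.06 to 2.85 CPM in siZCC (median 2.69), from 346 to 607 and 154 to 294 counts. The groups did not overlap here either. The highest library was siNC replicate 6 and the lowest siZCC replicate 4. The log2 fold change was -0.62 (SE 0.104), and -0.52 without siNC replicate 6.

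APOL2 differed little, and its groups overlapped. It ranged from 28.5 to 31.5 CPM in siNC (median 30.0) and from 29.7 to 36.6 CPM in siZCC (median 33.6), with 2447 to 3555 counts in every library. Its log2 fold change was 0.15 (SE 0.0449). Of the 12 fits on 11 libraries, 6 lost the call: those without siNC replicates 2 and 5 and siZCC replicates 1, 3, 4 and 6, each left out singly, where the log2 fold change was 0.11 to 0.15.

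APOL1 and APOL3 had few counts per library, so their differences are known only within wide intervals. These intervals are part of the description and are not read as a test. APOL1 had 24 to 39 counts per library in siNC (0.229 to 0.349 CPM, median 0.250) and 13 to 40 in siZCC (0.154 to 0.380 CPM, median 0.278). The siZCC libraries spanned the siNC range on both sides. Its log2 fold change of 0.03 (SE 0.222) has an interval of -0.40 to 0.47 at 1.96 SE. APOL3 had 10 to 28 counts in siNC (0.109 to 0.251 CPM, median 0.210) and 5 to 19 in siZCC (0.0607 to 0.181 CPM, median 0.124). These groups overlapped, and the log2 fold change of -0.66 (SE 0.278) has an interval of -1.21 to -0.12.

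**Figure D2:**
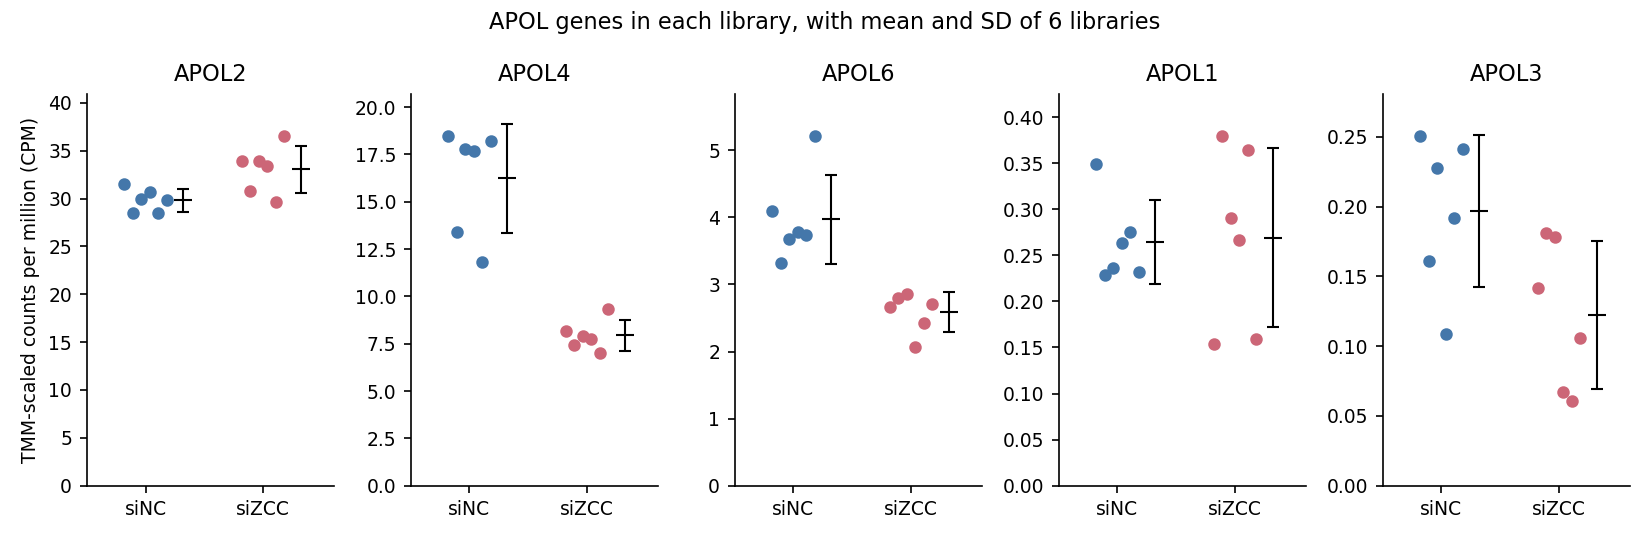
TMM-scaled CPM of the 5 measured APOL genes in each library (points), with the mean and SD of the 6 libraries of each group beside them; each panel has its own axis, starting at 0. The siZCC points lie below all siNC points for APOL4 and APOL6 and overlap them for APOL2, APOL1 and APOL3.

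Because APOL4 was lower and APOL2 was not, the make-up of the family differed between the groups. APOL4 made 28.8% ± 3.07 of the summed per-length level of the family in siNC and 15.5% ± 0.492 in siZCC (SD, n = 6 each). APOL2 made 67.3% ± 3.08 and 81.4% ± 0.524. The ratio of APOL4 to APOL2 per kb ran from 0.330 to 0.483 in siNC and from 0.185 to 0.204 in siZCC. Its coefficient of variation was 14.7% in siNC and 3.53% in siZCC. The ratio thus varied less over the siZCC libraries than each gene did (7.42% for APOL2 and 10.2% for APOL4). With 577 to 883 counts of APOL4 per siZCC library, counting error also adds to this spread and was not separated from it. The summed level of the family was 12.8 ± 1.01 CPM per kb in siNC and 11.7 ± 0.865 in siZCC, with overlapping ranges of 11.4 to 13.8 and 10.5 to 13.0.

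Whether members vary together from library to library was examined after subtracting each group's mean, which removes the difference between the groups. Over the 12 libraries, 1 of 10 pairs passed: APOL2 and APOL4, with Pearson's r = 0.76 (permutation p 8e-05, Benjamini-Hochberg adjusted over 10 pairs 8e-04; 100000 permutations of libraries within groups, two-sided). Spearman's rho was also 0.76 (permutation p 0.00637) but did not pass after adjustment (0.0637). Within siNC alone r was 0.88 (n = 6, exact permutation p 0.0222) and within siZCC 0.96 (n = 6, exact permutation p 0.00139). Without the 2 libraries farthest from the median of APOL2, r was 0.75. In siNC the relation follows the 2 levels of APOL4 described above, since replicates 2 and 5 were also the lowest for APOL2, at 28.5 CPM each. Leaving out both, which was chosen after seeing the data, gave r = 0.94 over the other 10 libraries. These 10 include all 6 siZCC libraries, and the siNC libraries left lay between 29.9 and 31.5 CPM for APOL2. This value therefore does not show whether the relation holds within siNC without replicates 2 and 5. The pair that varied together within each group therefore differed in opposite directions between the groups. How often other pairs of genes reach such an r was not counted. Both genes had a higher r with some genes outside the family, given below, so the relation is not shown to be particular to the family.

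**Figure D3:**
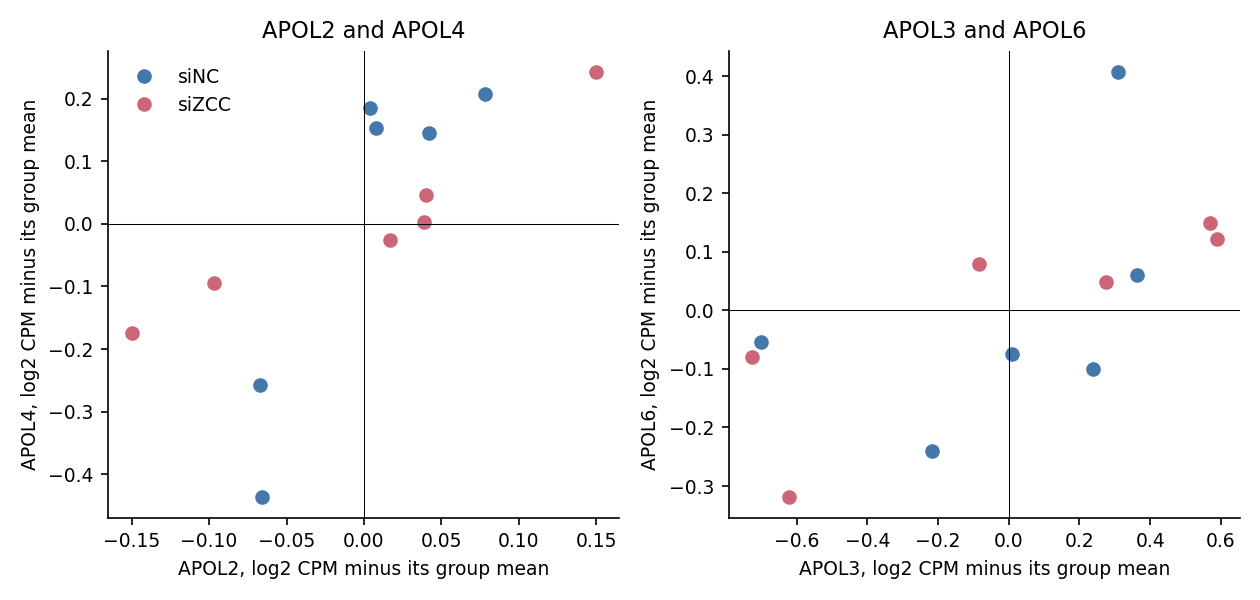
Log2 CPM of each library minus the mean of its group, for APOL4 against APOL2 and for APOL6 against APOL3 (12 libraries, coloured by group). APOL2 and APOL4 deviate together in both groups (r = 0.76); the points of APOL3 and APOL6 are looser (r = 0.64).

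APOL3 and APOL6 had the next highest value, r = 0.64 (permutation p 0.0281, adjusted 0.14; rho 0.71, permutation p 0.0173, adjusted 0.0865), which did not pass. It was 0.74 without the 2 libraries farthest from the median of APOL3. APOL3 had as few as 5 counts in a library, which limits any such relation. APOL4 and APOL6, which were both lower in siZCC, had r = 0.44 (permutation p 0.218, adjusted 0.442; rho 0.45, permutation p 0.15, adjusted 0.5) and 0.31 without the 2 farthest libraries.

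The other genes averaging 5 CPM or more (12624 for APOL2 and APOL4, 12625 for APOL6) were searched for the closest matches in these deviations. Those most like APOL2 included TRIM21 (r = 0.956), an intracellular antibody receptor induced by interferon, and NOMO1 (0.947), a protein of the endoplasmic reticulum. Those most like APOL4 were the heparan sulfate proteoglycan SDC4 (0.973), the glycosyltransferase B4GALNT3 (0.962) and the annexin A2 partner S100A10 (0.959). For APOL6 they were LGR4 (0.943), a receptor for R-spondins, RIC8B (0.925), a chaperone of G protein subunits, and the pyruvate dehydrogenase kinase PDK3 (0.906). These r are the highest of a search over 12 libraries and are a description only. Between the groups these matches of APOL2 did not follow it: the log2 fold change was -0.20 (SE 0.0548) for TRIM21 and -0.01 (SE 0.0275) for NOMO1. The matches of APOL4 had smaller differences than APOL4, with B4GALNT3 at -0.52 (SE 0.0875), S100A10 at -0.54 (SE 0.0991) and SDC4 at -0.24 (SE 0.103). The matches of APOL6 lay between -0.27 and -0.21.

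The genes around the family were compared to see whether the difference reached beyond it. Of 46 other annotated genes in the table within 500 kb, 17 were kept, and 3 rose and 1 fell (23.5% called, beside 22.2% of all genes tested; edgeR quasi-likelihood fit, Benjamini-Hochberg adjusted). Their median log2 fold change was 0.01, and that of all genes 0.00. MYH9, the nonmuscle myosin heavy chain gene next to APOL1, fell from 376 ± 49.1 to 308 ± 37.1 CPM (log2 fold change -0.29, SE 0.0831, adjusted p 0.0199). This call was lost without siNC replicate 1 (-0.25, adjusted p 0.0517) and without siZCC replicate 4 (-0.24, adjusted p 0.0547). RBFOX2, between APOL5 and APOL3, had 432 ± 21.4 and 400 ± 24.1 CPM and did not pass (log2 fold change -0.11, SE 0.0408, adjusted p 0.0606). RBFOX2 was near the threshold: it was called lower in 3 of 8 fits with other settings and in 3 of the 12 fits without 1 library. MB, the myoglobin gene beside APOL6, was at 0.232 ± 0.0313 and 0.291 ± 0.0730 CPM and did not pass (adjusted p 0.216). The genes that rose were all farther away: HMOX1, heme oxygenase 1, by 0.44 (SE 0.0469), TOM1 by 0.18 (SE 0.0307) and TXN2 by 0.10 (SE 0.0353) on the log2 scale, the last with an adjusted p of 0.0481 that was lost in 8 of the 12 fits without 1 library. Without siZCC replicate 4, 2 neighbours were called.

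**Figure D4:**
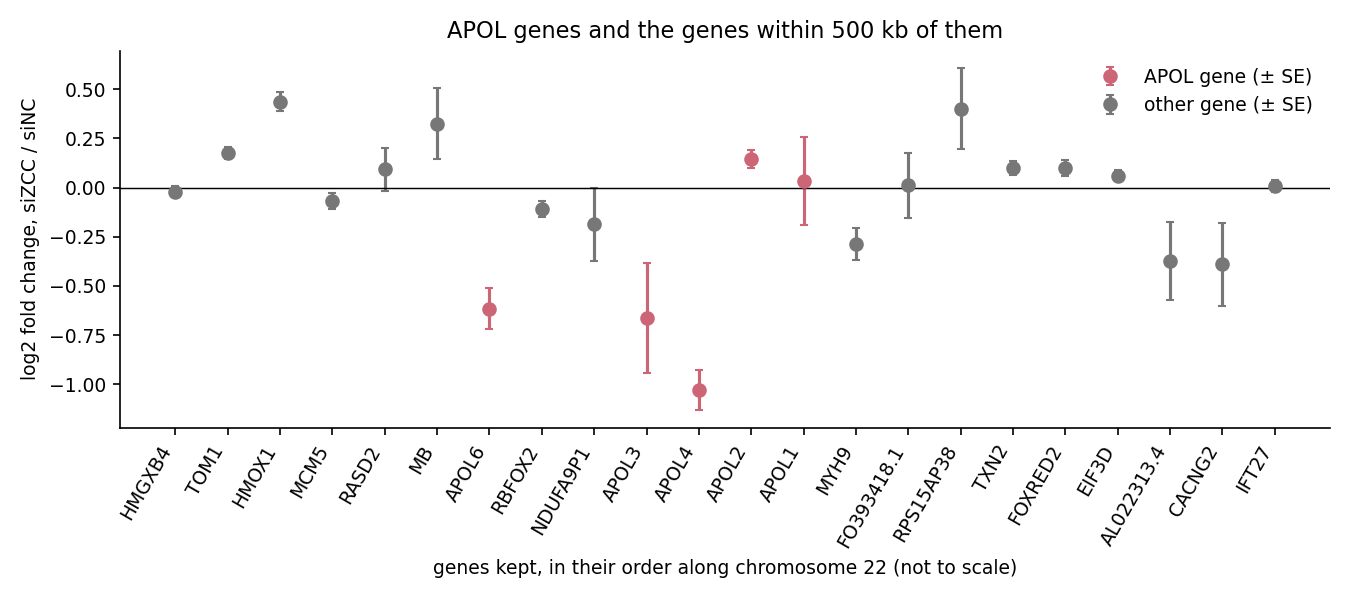
Log2 fold change of siZCC against siNC (points, ± SE) for the 5 APOL genes kept and the 17 other genes kept within 500 kb, in their order along chromosome 22 and not to scale. APOL6, APOL3 and APOL4 are the 3 lowest points, at -0.62, -0.66 and -1.03, and no other gene lies below -0.39.

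APOL genes are known interferon targets, so other targets of interferon gamma were read in the same fit. Of 30 kept, 15 passed, each lower in siZCC (50% called beside 22.2% of all genes tested), and the median log2 fold change was -0.36. With the smallest p-values, CIITA, the activator of class II antigen presentation, fell from 3.87 ± 1.24 to 1.32 ± 0.340 CPM (log2 fold change -1.54, SE 0.208). CD74, the class II invariant chain, had -1.52 (SE 0.204), and GBP1, a guanylate-binding protein, -0.79 (SE 0.114). The adjusted p of these 3 genes lay between 6.58e-05 and 1.28e-04 (edgeR quasi-likelihood fit, Benjamini-Hochberg adjusted). Others did not pass, TRIM22 with a log2 fold change of -0.04 and TAPBP with 0.04 among them. The difference of APOL4 thus lay between those of GBP1 and CD74, and that of APOL2 was opposite in sign to the called genes of the list.

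Genes that carry interferon and cytokine signals towards such targets were read next, in 1 list with inhibitors of these signals (SOCS1, SOCS3 and USP18, all among those that fell). Of 28 kept, 2 rose and 11 fell (46.4% called beside 22.2% of all genes tested), with a median log2 fold change of -0.11. SOCS3, an inhibitor of cytokine receptors, fell by 0.51 (SE 0.0918), the DNA sensing adaptor STING1 by 0.38 (SE 0.0942) and the RNA sensor DDX58 by 0.21 (SE 0.0574) on the log2 scale. IRF3 rose by 0.14 (SE 0.0361) and RELA by 0.13 (SE 0.0346). The adjusted p of these 5 genes lay between 8.25e-04 and 0.0149 (edgeR quasi-likelihood fit, Benjamini-Hochberg adjusted). The interferon receptor gene IFNGR1 stood at 29.5 CPM in both groups, and IRF1 at 6.69 and 5.96 CPM (adjusted p 0.0818). Without siNC replicate 6 the number called was 7.

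**Figure D5:**
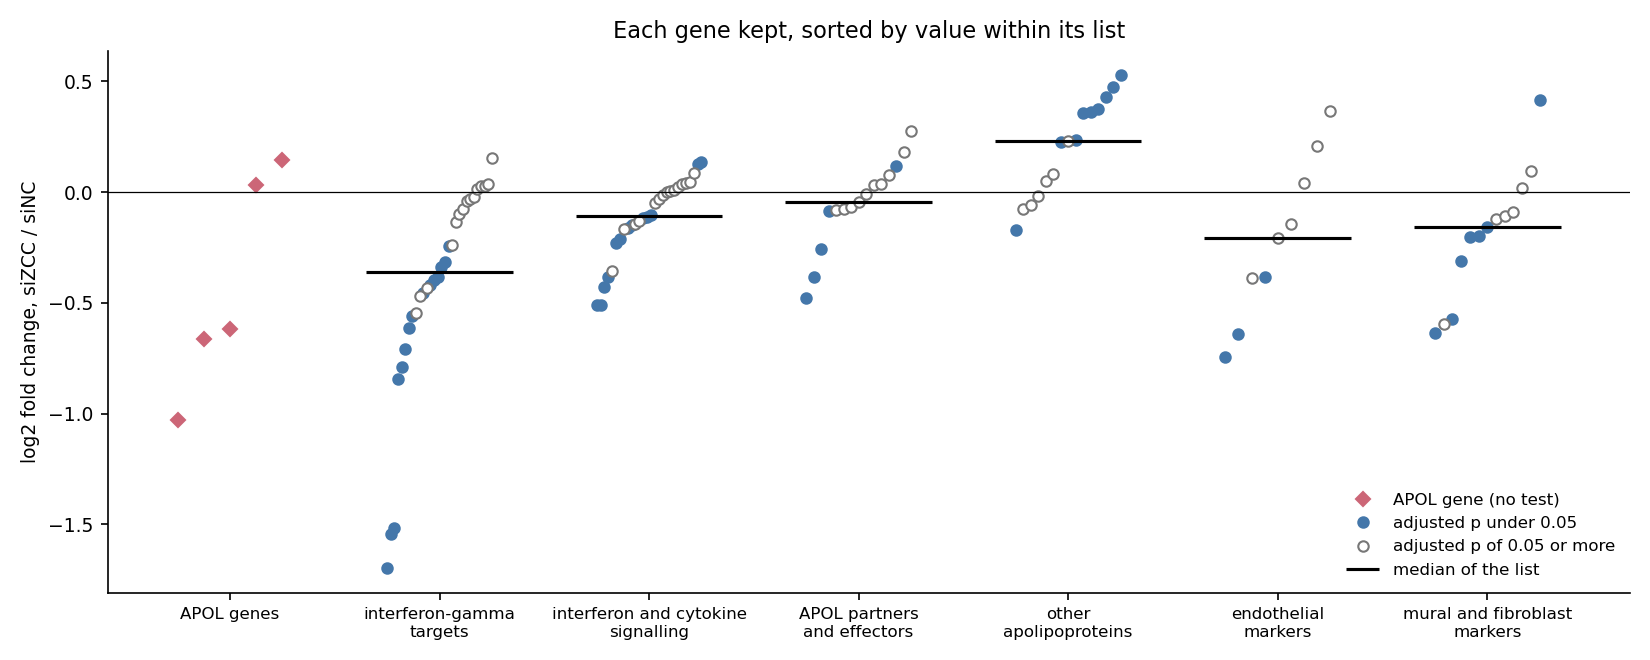
Log2 fold change of siZCC against siNC for each gene kept in 7 lists, sorted within each list, with filled points for an adjusted p under 0.05 and a bar at the median of the list; the APOL genes carry no test and no bar. The interferon-gamma targets have a median of -0.36. The list labelled other apolipoproteins, which also holds lipoprotein genes such as PLTP, ABCG1 and PON2, has 0.23.

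Markers of other cell types were read beside these values. The summed level of 12 endothelial markers was 16.9 to 22.6 CPM in siNC and 12.6 to 14.5 CPM in siZCC, without overlap. Of 9 kept, 3 fell (33.3% called, beside 22.2% of all genes tested): TEK, the angiopoietin receptor, by 0.75 (SE 0.113), the junction protein CLDN5 by 0.64 (SE 0.0867) and ESAM by 0.38 (SE 0.0691) in log2 fold change, with an adjusted p between 7.25e-05 and 8.45e-04 (edgeR quasi-likelihood fit, Benjamini-Hochberg adjusted). These 3 genes, at 9.46, 4.35 and 3.6 CPM in siNC, made most of the summed level, which averaged 20 CPM there. The sum therefore mainly restates these 3 and does not show a fall of the whole list. The defining markers PECAM1 (0.268 and 0.270 CPM in siNC and siZCC), VWF (0.0894 and 0.115 CPM) and CDH5 (0.0612 and 0.104 CPM) were near 0 in both groups. Of 13 mural and fibroblast markers, 1 rose and 6 fell (53.8% called, beside the same 22.2%), with summed levels of 410 to 696 and 331 to 510 CPM. ACTA2 fell by 0.57 (SE 0.0821), RGS5 by 0.31 (SE 0.0670) and PDGFRA by 0.64 (SE 0.184), while PDGFRB rose by 0.42 (SE 0.0498). Without siNC replicate 4, siNC replicate 6 or siZCC replicate 4 the number called was 4. The part of these markers in the values of APOL4 and APOL6 was not tested. Microglia and macrophage markers summed to 3.93 to 5.62 and 3.96 to 5.78 CPM, and 0 of 5 kept were called (0 at an unadjusted p under 0.05, and 0 by DESeq2 and limma voom), with P2RY12 at 0.0310 and 0.0164 CPM.

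Libraries of both groups differed in IL1B, a cytokine gene: 3 of each group had 449 to 1512 counts and the others 2 to 12. APOL4 had a difference of mean log2 CPM between siZCC and siNC of -1.09 within the former and -0.94 within the latter (3 libraries against 3 in each). For APOL6 these were -0.75 and -0.47, and for APOL2 0.13 and 0.16. APOL3 had -1.13 and -0.19, on 5 to 28 counts per library. This split by IL1B was defined from the data and is not a group of the study.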

How the data were processed

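The authors' deposited values are raw counts of whole numbers, 1 row per gene symbol and 1 column for each of 12 libraries. The submitters' processing notes list bcl2fastq 2.17, STAR 2.7.6a, featureCounts 2.0.1 and GRCh38, with no role or order. Per the labels' protocols, libraries came from Qiazol lysates and the NEBNext Ultra II Directional kit. The annotation, strand setting and treatment of multi-mapping reads are not given in the sources used here.

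Counts were analysed in R 4.3.3 with edgeR 4.0.16: filterByExpr (24671 genes kept), TMM factors, glmQLFit and glmQLFTest over all libraries without covariates, and Benjamini-Hochberg adjustment over all genes kept (threshold 0.05). SEs were derived from the F statistic (log2 fold change over its square root). Log2 CPM uses a prior count of 2. The fit was tested on simulated data. Positions and exon lengths come from GENCODE v29, which holds 92.2% of the symbols.

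The members and lists were chosen with earlier results of these data known. The text names the members, ZCCHC17, flanking genes, the 3 smallest p-values per list and direction among called genes, and the 3 genes most like each member with a mean of at least 1 CPM; other genes named, such as IFNGR1, IRF1, TRIM22 and TAPBP, were chosen after their values were seen. Alternatives were DESeq2 1.42.0, limma 3.58.1 voom, other scalings and filters, blocks, and leaving out each library. Groups and replicate numbers come from the titles. Splicing and proteins were not analysed here. A match of APOL2 is not reported here.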

Additional observations from a re-analysis of the deposited data

Results flagged for a closer look

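Among 108 groups of 6 libraries (54 quantities: the library total and the named genes in siNC and in siZCC), 2 had a highest or lowest library whose gap to its neighbour was above Dixon's critical value, where chance gives about 5.4. None was in an APOL gene. B4GALNT3, the glycosyltransferase gene that varied with APOL4, was highest in siZCC replicate 6 at 5.96 log2 CPM, where the others lay at 5.57 to 5.69 (a gap of 0.698 of the whole range); this library was also the highest of its group for APOL4 and APOL2. Among library totals, siNC replicate 4 was lowest with 90755953 counts, the rest of its group holding 109973707 to 120023356 (a gap of 0.657).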

How the results depend on the processing

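The directions of APOL2, APOL3, APOL4 and APOL6 were the same under all 8 other fits in which each was tested and in all 12 that left out 1 library; APOL1, near 0, turned to -0.03 with limma voom and ran from -0.11 to 0.15 with single libraries left out. Over the other fits, APOL4 ran from -1.04 to -1.01, APOL6 from -0.63 to -0.60 and APOL2 from 0.14 to 0.15. APOL1 and APOL3 were not tested at a mean count of at least 50, by construction of that filter. Leaving out single libraries gave 4484 to 5626 called genes in all; the other fits gave 4785 to 6005 genes. Across groups, libraries with the same replicate number had deviations over all genes kept correlated at -0.08 to 0.02, which shows no pairing by this measure. Their IL1B counts were opposite for every number: siNC replicates 2, 3 and 6 and siZCC replicates 1, 4 and 5 were high. The reason for this was not tested. A fit with the replicate block called 4902 genes. The correlation of APOL2 and APOL4 had an adjusted p of 0.0637 by Spearman's rho (0.76), and that of APOL3 and APOL6 reached an exact permutation p of 0.0194 within siZCC (r = 0.83); the cause was not tested. Called genes ran from 7 to 15 in the signalling list, 4 to 7 in the mural and fibroblast list, 2 to 5 among the neighbours and 3 to 5 in the partner list with single libraries left out, and were 3 in the partner list with no filter on low counts. Depth limits APOL1, APOL3 and APOL5, which had at most 40 counts in any library.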

Other observations

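Other apolipoproteins and lipoprotein genes mostly differed the other way from APOL4. Of 15 kept of 30, 8 rose and 1 fell (60% called beside 22.2% of all genes tested), with a median log2 fold change of 0.23. APOE, the main lipid carrier of the brain, rose from 73.2 ± 5.40 to 102 ± 8.46 CPM (log2 fold change 0.48, SE 0.0545). The phospholipid transfer protein gene PLTP rose by 0.36 (SE 0.0356) and the sterol exporter gene ABCG1 by 0.53 (SE 0.0688), and PON2, a paraoxonase, fell by 0.17 (SE 0.0430), all as log2 fold changes. Over these 4 genes the adjusted p lay between 4.35e-06 and 0.00904 (edgeR quasi-likelihood fit, Benjamini-Hochberg adjusted). APOLD1, an endothelial gene on chromosome 12 named for its similarity to the family, stood at 10.5 and 10.1 CPM and did not pass (log2 fold change -0.06, adjusted p 0.534). APOA1, the main protein of high-density lipoprotein, was at 0.127 and 0.125 CPM.

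Genes reported to act with APOL proteins were read in the same fit. Of 15 kept, 1 rose and 4 fell (33.3% called beside 22.2% of all genes tested), with a median log2 fold change of -0.04. The integrin gene ITGB3 fell by 0.48 (SE 0.129), STING1 by 0.38 (SE 0.0942) and the initiator caspase gene CASP8 by 0.26 (SE 0.0636) on the log2 scale. BCL2, an inhibitor of apoptosis, rose by 0.12 (SE 0.0402) with an adjusted p of 0.045 in edgeR's quasi-likelihood test, a call that was lost in 10 of the 12 fits that left out 1 library. Its relatives did not share this direction: BCL2L1 fell by 0.085 (SE 0.0294, adjusted p 0.0466 in the same test), and MCL1 did not pass (log2 fold change -0.007). Only 3 were called in the fits lacking siNC replicates 3 and 4 and siZCC replicates 3, 4 and 5, each left out singly; DESeq2 called 6 and a block for IL1B 7. The APOL3 partner NCS1, a neuronal calcium sensor, stood at 145 and 137 CPM and PI4KB at 96.9 and 99.3 CPM, neither of which passed (adjusted p 0.088 and 0.399).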
